A study of Mus musculus with 36 samples.

Results

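The X-ray response of the mouse spleen was set against that of the mouse thymus, gene by gene, as an interaction: the log2 change after X-rays in spleen minus the log2 change after X-rays in thymus. The comparison took 12 of the 36 RNA-seq libraries of the series, namely 3 of X-ray spleen, 3 of untreated spleen, 3 of X-ray thymus and 3 of untreated thymus, chosen by their labels and not by any measured value. All 4 groups came from mice with wild-type (wt) p53, and the X-ray tissues were taken 3 h after 2 Gy. The other libraries hold liver of the same design and a separately sequenced set from wt mice and mice carrying a C-terminal deletion of p53. The labels give neither strain, sex nor age of the mice, do not name the animals, and do not say whether a spleen and a thymus came from the same mouse, so p-values measure the spread between these libraries only. A positive interaction means that the X-ray change was more positive in spleen, and a negative one that it was more positive in thymus.

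p53 is a transcription factor that is stabilised when ionising radiation breaks DNA, and it switches on genes that halt the cell cycle, repair DNA or kill the cell. NF-kB is a second family of transcription factors that answers to DNA breaks and to immune receptors, and it drives its own inhibitors along with survival and inflammatory genes. The thymus consists mostly of immature T cells, which die readily after irradiation, whereas the mouse spleen mixes B cells, mature T cells, macrophages and a large pool of red-cell precursors.

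Reads assigned to genes numbered 50106080 to 55307409 per spleen library and 44348579 to 60522646 per thymus library. Pearson's r between replicates of a group lay between 0.979 and 0.995 over all genes tested. Organ markers followed the labels: a list of 12 thymic epithelial markers summed to 1626 to 1909 signal units in X-ray thymus and 1077 to 1124 in untreated thymus, against 6.3 to 7.2 in X-ray spleen and 4.4 to 5.5 in untreated spleen. X-ray thymus replicate 3 stood apart in its summed signal over hepatocyte genes, 1940, against 245 and 289 in the other X-ray thymus libraries and 115 to 304 in untreated thymus. X-ray spleen replicates 2 and 3 were also high in this sum, with 817 and 715, against 240 in X-ray spleen replicate 1 and 144 to 182 in untreated spleen. The summed signal over 16 erythroid genes was 306781, 196944 and 250409 in X-ray spleen and 174665, 115647 and 172514 in untreated spleen. Values are the authors' reads scaled to library size, called signal here. They are not divided by gene length, so levels were compared between samples and never between genes.

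The response to X-rays differed between the organs at 1879 of 14779 genes tested, which is 12.7% (limma, adjusted p under 0.05). The interaction was positive at 812 genes and negative at 1067, which is 5.49% and 7.22% of the genes tested, and its size reached 2-fold at 277 and 285 of them. Which direction had more calls depended on the scaling, with 991 positive and 932 negative after median-ratio scaling and 1327 and 1181 by DESeq2. In spleen alone 2872 genes rose and 3279 fell, 41.6% of all genes tested together, and in thymus 1229 rose and 1167 fell, 16.2% together. The spleen balance turned likewise, with 3337 rising and 2710 falling after median-ratio scaling and 3686 and 2845 by DESeq2. In thymus it turned to 1086 rising and 1477 falling after quantile normalisation. Fitted on its own libraries alone, thymus had 2830 calls, 1297 rising and 1533 falling, and spleen had 5127. The median change over all genes was -0.00 in spleen and 0.02 in thymus on the log2 scale, and the median interaction was -0.03. In whole tissue, fewer cells of a type and less RNA per cell cannot be told apart, and this holds for every fall given here. Without X-ray spleen replicate 1 the number of interaction calls was 3450, and without X-ray spleen replicate 3 it was 1228.

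A gene called in one organ and not called in the other is not thereby shown to differ between them. Of the 4654 genes called in spleen and not in thymus, 1333 had a called interaction, and of the 899 called in thymus and not in spleen, 217 had one. A further 1497 genes were called in both organs: 723 rose in both, 647 fell in both and 127 moved in opposite directions, all 127 with a called interaction. Among the genes that rose in both organs, 70 rose further in spleen and 25 further in thymus by the interaction test. Among those that fell in both, 42 fell further in spleen and 1 further in thymus. After X-rays the difference in level between the organs was larger than before at 50.5% of the genes with a called interaction and at 50.6% of all genes.

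The 889 genes with a called change of at least 2-fold in an organ were then sorted by their 95% confidence intervals, taking a change within 1.5-fold as small. A response of 2-fold or more was given to 1 organ when the interaction was called and the whole interval of the other organ's change lay within 1.5-fold. It was shared alike when both organs' changes were called in the same direction and the interval of the interaction lay within 1.5-fold, and shared but unequal when both were called in the same direction and so was the interaction. By these rules 224 genes (25.2%) responded in spleen only, 82 of them rising and 142 falling, and 15 (1.69%) in thymus only, 7 rising and 8 falling. Both thymus means were under 1 at 49 of the 224, and both spleen means at 3 of the 15. Near that level the pseudocount holds a change down, so an interval within 1.5-fold does not show that the organ lacked a response. Shared and alike were 43 genes (4.84%), 42 of them rising. Shared but unequal were 110 (12.4%), 86 of which changed more in spleen, and 18 (2.02%) went in opposite directions. The remaining 479 (53.9%) met none of these rules. At 158 of them the interaction was called, so the responses differed. There the other organ's change was not called, and its interval reached beyond 1.5-fold. At the rest of the 479 the interaction was not called. Without X-ray spleen replicate 1 there were 393 spleen-only, 212 shared but unequal and 36 opposite genes, and with a margin of 2-fold in place of 1.5-fold there were 161 shared alike.

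**Figure D1:**
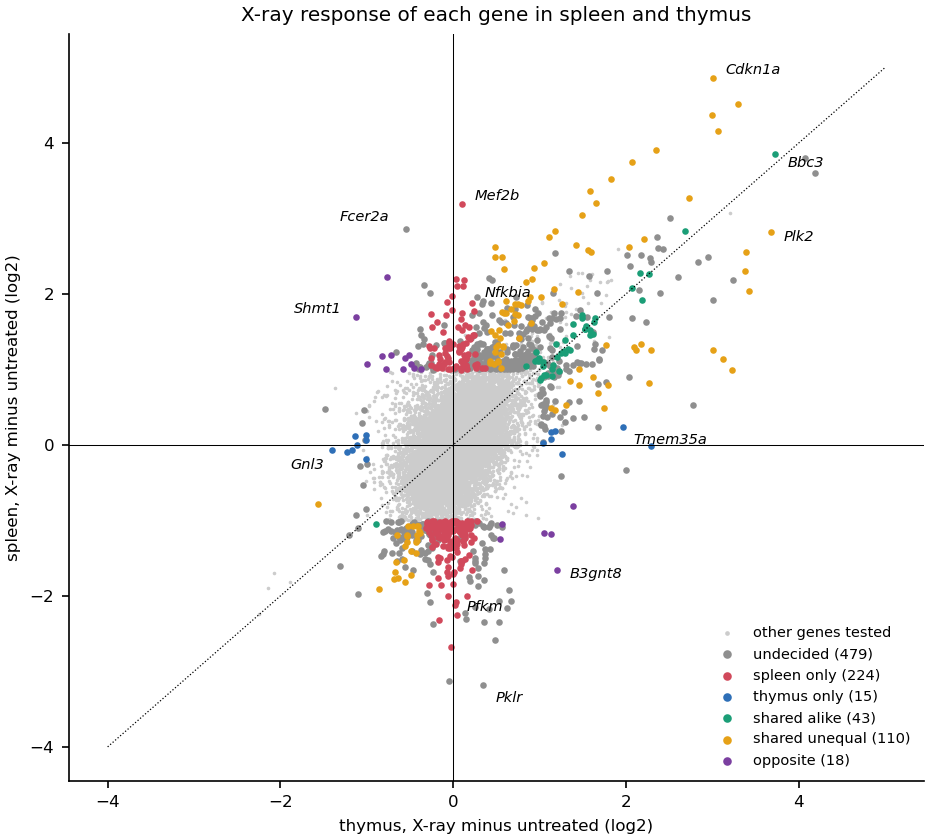
X-ray response in spleen against X-ray response in thymus, each as the log2 difference of X-ray minus untreated libraries (3 of each), for the 14779 genes tested, with the response classes in colour. Most of the 43 genes shared alike lie near the dotted line of equal change in the upper right, the 224 spleen-only genes lie above and below 0 on the spleen axis near 0 on the thymus axis, and the 15 thymus-only genes lie to either side on the thymus axis.

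Most of the p53 targets tested rose in both organs. Of 54 tested genes in 3 lists of p53 targets (feedback and arrest, death, repair and metabolism), 38 rose in spleen, against 19.4% of all genes tested, and 34 rose in thymus, against 8.32%. Their median change was 1.03 in spleen and 0.94 in thymus on the log2 scale, beside -0.00 and 0.02 for all genes. A total of 33 rose in both organs. No member was placed in the spleen-only, the thymus-only or the opposite class, 5 were shared alike (Bbc3, Aen, Ei24, Ercc5 and Ephx1), 17 were shared but unequal, 9 could not be placed, and the others had no called 2-fold change. The interaction was called higher at 14 members and lower at 9, and its median was 0.05. In spleen 7 members fell, against 22.2% of all genes, among them Gls2, a glutaminase, and in thymus 1 fell, against 7.9%, namely Bid, a BH3-only death protein described with the opposite genes. Trp53 itself, which encodes p53, had 107, 140 and 114 signal units in X-ray spleen and 114, 128 and 124 in untreated spleen, and 77.9, 84.8 and 84.8 in X-ray thymus and 94.0, 95.9 and 101 in untreated thymus. Its interaction was 0.20 ± 0.14 on the log2 scale (SE, adjusted p = 0.37), and neither organ's change passed the test.

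Bbc3 encodes PUMA, a BH3-only protein that triggers mitochondrial cell death, and among the members shared alike it had the largest change. It had 58.4, 57.7 and 51.4 signal units in X-ray spleen, against 3.42, 2.79 and 4.06 in untreated spleen, and 35.9, 50.4 and 48.9 in X-ray thymus, against 3.02, 2.56 and 3.14 in untreated thymus. No X-ray library overlapped an untreated one, and the organs overlapped without X-rays, while after them spleen was slightly the higher. The change was 3.85 ± 0.15 in spleen and 3.73 ± 0.15 in thymus on the log2 scale, and the interaction was 0.12 ± 0.21 (adjusted p = 0.75). Aen, an exonuclease that promotes apoptosis, changed by 2.84 ± 0.11 in spleen and 2.69 ± 0.11 in thymus (interaction 0.15 ± 0.16, adjusted p = 0.57). Ei24, an endoplasmic reticulum protein known as a p53-induced transcript, had 265, 237 and 248 units in X-ray spleen, against 53.1, 51.1 and 49.9 in untreated spleen, and 196, 185 and 168 in X-ray thymus, against 35.7, 38.6 and 38.1 in untreated thymus. Its log2 change was 2.27 ± 0.08 in each organ. Outside the lists, Pvt1, a long non-coding RNA beside Myc (2.29 ± 0.12 in spleen and 2.17 ± 0.12 in thymus), and Kank3 (2.08 ± 0.10 and 2.07 ± 0.10) rose alike. Zmynd19 was the single gene of the class that fell, by 1.04 in spleen and by 0.90 in thymus on the log2 scale.

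A p53 half-site, one arm of the p53 response element searched by its consensus on both strands, stood in the promoter window of 15 of 45 list members with a window (33.3%), against 8.26% of the tested genes that have one. Among the genes shared alike and rising it stood in 7 of 31 (22.6%), among those shared unequally and rising in 9 of 68 (13.2%), and among those rising in spleen only in 1 of 58 (1.72%). Among falling genes it stood in 3 of 20 shared unequally (15%) and in 9 of 115 of the spleen-only class (7.83%). The windows below, from RefSeq on build GRCm38.p6, run from 250 bases before to 50 after the start of Aen (chr7:78895677-78895976, plus strand), Ei24 (chr9:36797285-36797584, minus strand) and Ccng1 (chr11:40755237-40755536, minus strand), written 5′ to 3′ on the gene's strand. They are shown because Aen and Ei24 rose alike in both organs and Ccng1, with the same kind of match, did not rise equally. Capitals mark the half-site, which begins at position 11 for Aen, -10 for Ei24 and -185 for Ccng1 counted from the start site. A match describes letters in the window and is not a measured binding site.
Aen: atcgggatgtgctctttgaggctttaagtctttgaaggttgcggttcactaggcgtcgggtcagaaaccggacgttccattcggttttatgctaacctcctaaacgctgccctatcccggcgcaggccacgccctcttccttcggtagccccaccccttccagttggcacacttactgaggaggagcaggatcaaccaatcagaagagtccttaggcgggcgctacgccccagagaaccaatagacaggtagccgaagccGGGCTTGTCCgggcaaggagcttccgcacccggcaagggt
Ei24: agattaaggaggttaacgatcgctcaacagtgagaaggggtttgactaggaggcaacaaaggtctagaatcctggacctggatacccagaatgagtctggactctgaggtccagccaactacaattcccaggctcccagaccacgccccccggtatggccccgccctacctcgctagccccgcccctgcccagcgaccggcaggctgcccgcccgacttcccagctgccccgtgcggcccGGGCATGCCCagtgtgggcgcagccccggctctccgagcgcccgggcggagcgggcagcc
Ccng1: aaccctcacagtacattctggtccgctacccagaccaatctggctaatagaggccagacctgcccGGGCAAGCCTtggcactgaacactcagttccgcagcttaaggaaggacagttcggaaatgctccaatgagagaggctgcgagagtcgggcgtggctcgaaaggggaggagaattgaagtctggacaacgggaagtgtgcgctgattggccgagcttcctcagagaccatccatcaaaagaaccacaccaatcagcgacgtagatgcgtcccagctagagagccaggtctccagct

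Of the 33 p53 targets that rose in both organs, 11 rose further in spleen, 6 rose further in thymus and 16 had no called interaction. Cdkn1a encodes p21, the inhibitor of cyclin-dependent kinases that holds cells at the G1 checkpoint (chromosome 17, 29090979 to 29100722). It had 157, 162 and 150 signal units in X-ray spleen, against 4.88, 3.74 and 6.32 in untreated spleen, and 112, 97.7 and 113 in X-ray thymus, against 12.5, 11.1 and 15.4 in untreated thymus. All untreated spleens were below all untreated thymuses and all X-ray spleens above all X-ray thymuses. The log2 change was 4.87 ± 0.16 in spleen and 3.01 ± 0.16 in thymus, an interaction of 1.86 ± 0.22 (adjusted p = 0.00035). Mdm2, the ubiquitin ligase that degrades p53, had 178, 150 and 178 units in X-ray spleen, against 47.2, 42.6 and 47.6 in untreated spleen, and 109, 110 and 103 in X-ray thymus, against 64.4, 65.5 and 65.0 in untreated thymus. Here too the order of the organs turned round, and the interaction was 1.14 ± 0.12 (adjusted p = 0.0002).

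Trp53inp1 and Fas kept the order of the organs. Trp53inp1, a p53 cofactor in stress, had 315, 282 and 330 units in X-ray spleen, against 48.5, 41.5 and 39.0 in untreated spleen, and 722, 792 and 658 in X-ray thymus, against 300, 329 and 324 in untreated thymus. It was lower in spleen in every library before and after X-rays, while its interaction was 1.65 ± 0.15 (adjusted p = 0.00011). Fas, the death receptor, behaved likewise, with 16.2, 18.2 and 18.5 units in X-ray spleen and 3.09, 2.73 and 3.40 in untreated spleen, and 85.3, 83.6 and 70.0 in X-ray thymus and 41.4, 42.5 and 39.8 in untreated thymus (interaction 1.41 ± 0.15, adjusted p = 0.00019). Over 10 death receptors and ligands, 7 rose and 0 fell in spleen, 5 rose and 0 fell in thymus, and 4 interactions were called, all higher, where over all genes 19.4% rose in spleen, 8.32% rose in thymus and 5.49% had a higher interaction. The receptors Tnfrsf10b (3.20 ± 0.15 in spleen, 1.66 ± 0.15 in thymus) and Eda2r (3.75 ± 0.13 and 2.07 ± 0.13) and Phlda3, a repressor of the kinase Akt (4.16 ± 0.14 and 3.06 ± 0.14), also rose further in spleen, whatever the order of the organs. Ccng1, cyclin G1, rose by 3.28 ± 0.08 and 2.73 ± 0.08, and its interaction of 0.55 ± 0.12 (adjusted p = 0.0089) was 0.24 with an adjusted p of 0.23 after quantile normalisation.

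Another 6 targets that rose in both organs rose further in thymus. Plk2, a polo-like kinase, had 33.0, 51.6 and 45.4 signal units in X-ray spleen, against 5.03, 5.25 and 6.70 in untreated spleen, and 37.6, 38.0 and 38.2 in X-ray thymus, against 2.60, 2.18 and 2.74 in untreated thymus. The X-ray levels of the organs overlapped and the untreated levels did not. Its interaction was -0.86 ± 0.22 (adjusted p = 0.022), and the call ended with a pseudocount of 2, in a fit with the 6 liver libraries added, without untreated spleen replicate 3 and without untreated thymus replicate 2, with adjusted p up to 0.069. Dglucy, D-glutamate cyclase, changed by 2.56 ± 0.13 in spleen and 3.39 ± 0.13 in thymus (interaction -0.83 ± 0.18, adjusted p = 0.0097). Apaf1, the scaffold of the apoptosome, which also stands in the list of caspases below, had 109, 105 and 104 units in X-ray spleen, against 44.0, 44.9 and 39.4 in untreated spleen, and 188, 202 and 175 in X-ray thymus, against 40.8, 48.9 and 41.6 in untreated thymus. The organs overlapped before X-rays and not after, and the interaction was -0.79 ± 0.13 (adjusted p = 0.002). Bax (-0.39 ± 0.12, adjusted p = 0.059), a pore-forming death protein, Sesn2 (-0.39 ± 0.20, adjusted p = 0.22), a stress-induced regulator of growth signalling, and Pmaip1 (0.24 ± 0.21, adjusted p = 0.49), which encodes the BH3-only protein NOXA, had interactions that did not pass. The intervals of these interactions reached beyond 1.5-fold, so likeness was not shown either. Bax leaned to a larger rise in thymus and was called in 5 of 25 alternatives.

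**Figure D2:**
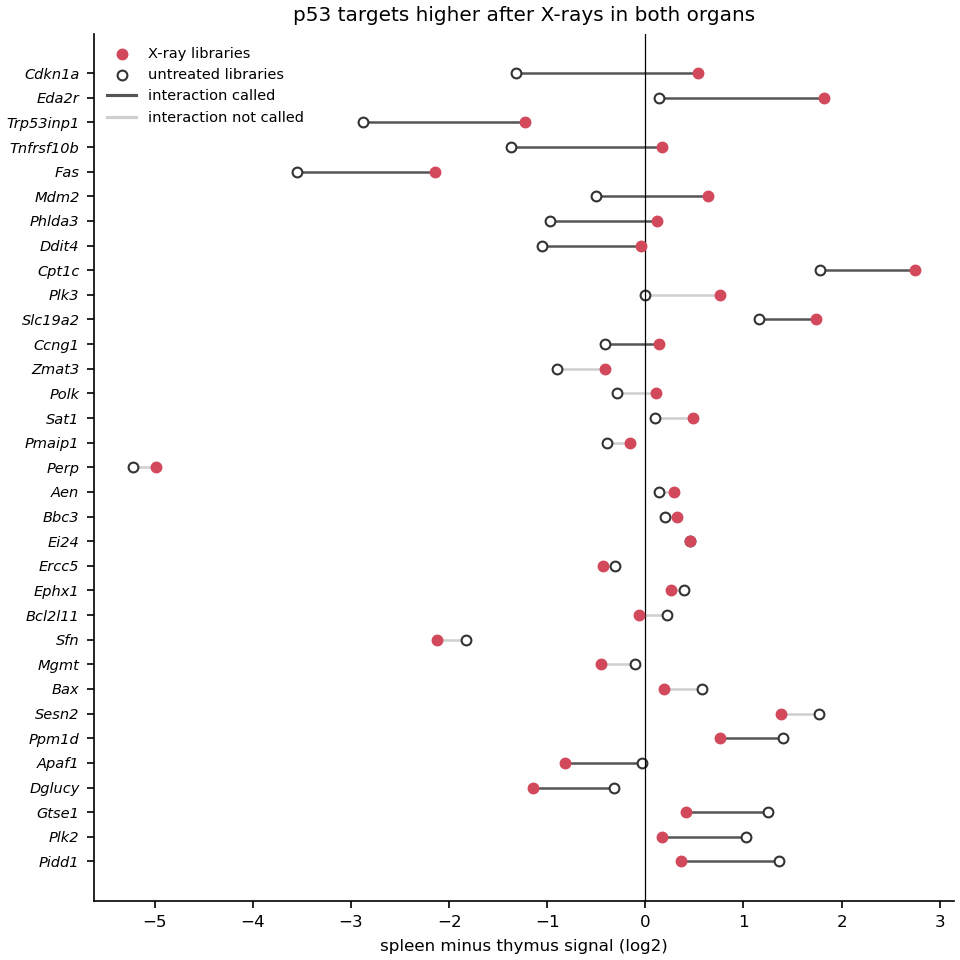
Spleen minus thymus signal on the log2 scale for the 33 p53 targets that rose in both organs, with X-ray libraries as filled points and untreated libraries as open points (means of 3 libraries an organ), ordered by the interaction, which is the length of each line (dark where called). The line of Cdkn1a crosses 0, with 0.54 after X-rays and -1.31 without, that of Fas stays below 0 (-2.14 and -3.55), those of Bbc3, Aen and Ei24 are short, and that of Plk2 runs the other way (0.17 and 1.03).

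The caspases moved otherwise. Among 13 tested caspases and death nucleases, 4 rose and 5 fell in spleen, 1 rose and 0 fell in thymus, and the interaction was lower at 4 and higher at 0, with a median of -0.29. Over all genes 19.4% rose and 22.2% fell in spleen, 8.32% rose in thymus and 7.22% had a lower interaction. Casp6, an executioner protease of apoptosis, and Casp9, the initiator that binds Apaf1, had interactions of -0.92 ± 0.13 (adjusted p = 0.00078) and -0.73 ± 0.15 (adjusted p = 0.0084). On the side of survival, 4 of 7 BCL2-family genes rose in spleen, 1 rose in thymus, and the interaction was higher at 3, against 19.4%, 8.32% and 5.49% of all genes. All 3 are the near-identical copies Bcl2a1a, Bcl2a1b and Bcl2a1d, among which reads may have been shared by the counting, and the call of Bcl2a1a ended without any of 7 single libraries, with adjusted p up to 0.070.

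NF-kB genes rose in spleen and for the most part did not pass the test in thymus. Of 18 subunits and targets, 17 rose and 1 fell in spleen, against 19.4% and 22.2% of all genes tested. In thymus 4 rose and 0 fell, against 8.32% and 7.9%, and 17 of the 18 had a positive change, called or not. The interaction was higher at 12 and lower at 0, against 5.49% and 7.22% of all genes. The median change of the 18 was 1.49 in spleen and 0.23 in thymus on the log2 scale, and the median interaction was 1.16. The member that fell in spleen was Tnfaip2, which is induced by tumour necrosis factor. The members placed in the spleen-only class were Relb, Nfkbia, Nfkbie, Birc3 and Traf1, and those shared but unequal were Icam1, Cd83 and Cxcl10. Without X-ray spleen replicate 1 the interaction was called at 16 members.

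Nfkbia encodes IkB-alpha, which holds NF-kB in the cytoplasm and is itself an NF-kB target (chromosome 12, 55489409 to 55492647). It had 115, 171 and 138 signal units in X-ray spleen, against 36.2, 35.4 and 41.5 in untreated spleen, and 91.0, 87.3 and 92.8 in X-ray thymus, against 77.1, 75.4 and 80.9 in untreated thymus. X-ray libraries were above untreated ones in both organs, but by 1.88 ± 0.12 in spleen and 0.22 ± 0.12 in thymus (adjusted p = 0.25), and the interaction was 1.66 ± 0.17 (adjusted p = 0.00018). Nfkbie, a related inhibitor, had 68.2, 96.8 and 78.8 units in X-ray spleen, against 25.8, 25.2 and 29.7 in untreated spleen, and 27.5, 31.5 and 32.2 in X-ray thymus, against 38.3, 36.2 and 33.6 in untreated thymus. Its thymus libraries leaned the other way without passing the test (-0.24 ± 0.12, adjusted p = 0.19), and the interaction was 1.81 ± 0.17 (adjusted p = 0.00014). Tnfaip3 encodes A20, an enzyme that shuts NF-kB signalling down. It had 63.8, 112 and 83.5 units in X-ray spleen, against 18.1, 16.9 and 19.4 in untreated spleen, and 88.1, 97.7 and 97.0 in X-ray thymus, against 67.5, 71.2 and 67.1 in untreated thymus. X-ray libraries were above untreated ones in both organs, and the interaction was 1.73 ± 0.21 (adjusted p = 0.00047). Cd83, a surface protein of activated B cells and dendritic cells, rose in both organs, by 2.50 ± 0.14 in spleen and by 0.56 ± 0.14 in thymus (interaction 1.94 ± 0.20, adjusted p = 0.00018).

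An NF-kB motif, GGGNNTTTCC on either strand, stood in the promoter window of 4 of 13 NF-kB list members with a window (30.8%), against 2.17% of the tested genes that have one. Among all genes rising in spleen only it stood in 2 of 58 (3.45%). The windows of Nfkbia (chr12:55492598-55492897, minus strand), Tnfaip3 (chr10:19015361-19015660, minus strand) and Nfkb2 (chr19:46304487-46304786, plus strand), again from RefSeq on GRCm38.p6 and 5′ to 3′, are shown because all 3 carry the motif, in capitals, within 30 bases before the start site, first base at -29, -12 and -11. Nfkb2 encodes the p100 subunit, and its interaction was 1.27 (adjusted p = 0.00089); it was picked for its motif after its values were known.
Nfkbia: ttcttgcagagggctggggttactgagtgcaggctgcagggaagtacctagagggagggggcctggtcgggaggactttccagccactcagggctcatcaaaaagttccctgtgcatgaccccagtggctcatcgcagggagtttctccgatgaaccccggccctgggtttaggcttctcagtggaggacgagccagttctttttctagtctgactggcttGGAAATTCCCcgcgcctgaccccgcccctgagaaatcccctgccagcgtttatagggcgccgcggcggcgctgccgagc
Tnfaip3: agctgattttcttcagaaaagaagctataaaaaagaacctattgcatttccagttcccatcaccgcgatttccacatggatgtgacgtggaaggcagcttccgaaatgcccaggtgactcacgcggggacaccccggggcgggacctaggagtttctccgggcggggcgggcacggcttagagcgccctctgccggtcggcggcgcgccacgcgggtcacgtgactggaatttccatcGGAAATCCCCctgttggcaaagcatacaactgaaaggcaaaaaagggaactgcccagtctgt
Nfkb2: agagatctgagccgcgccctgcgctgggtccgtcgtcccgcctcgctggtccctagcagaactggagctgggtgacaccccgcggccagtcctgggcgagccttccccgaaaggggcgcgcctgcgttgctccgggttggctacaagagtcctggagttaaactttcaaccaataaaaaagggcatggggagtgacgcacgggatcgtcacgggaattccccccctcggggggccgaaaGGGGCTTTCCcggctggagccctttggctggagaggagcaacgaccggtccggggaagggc

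Of 19 costimulatory ligands and receptors of immune cells, 10 rose and 0 fell in spleen and 5 rose and 1 fell in thymus, against 19.4%, 22.2%, 8.32% and 7.9% of all genes. Their interaction was higher at 5 and lower at 0, against 5.49% and 7.22%. The single genes that follow have called interactions and do not stand for all genes of B cells or antigen-presenting cells. Mef2b, a transcription factor of germinal-centre B cells, had 7.44, 10.4 and 8.10 signal units in X-ray spleen, against 0.351, 0.592 and 0.550 in untreated spleen, and 0.488, 0.854 and 0.715 in X-ray thymus, against 0.661, 0.704 and 0.433 in untreated thymus. It was below 1 in every thymus library, so a thymus change could hardly be seen at this level. The log2 change was 3.19 ± 0.17 in spleen and the interaction 3.08 ± 0.25 (adjusted p = 7.6e-05). Fcer2a, which encodes the B-cell IgE receptor CD23, had the highest interaction among the genes named by the rule, 3.40 ± 0.46 (adjusted p = 0.00078), with 361, 632 and 466 units in X-ray spleen, against 68.8, 58.4 and 68.0 in untreated spleen, and 5.81, 3.64 and 5.42 in X-ray thymus, against 14.3, 6.44 and 4.19 in untreated thymus. Cd40, the receptor for T-cell help, changed by 1.86 ± 0.16 in spleen and 0.33 ± 0.16 in thymus (interaction 1.53 ± 0.23, adjusted p = 0.0013). Cd80, a costimulatory ligand, rose in both, by 2.75 ± 0.16 and 1.11 ± 0.16 (interaction 1.65 ± 0.22, adjusted p = 0.00072). Irf4, a factor of activated B cells and plasma cells, was placed in the spleen-only class (interaction 1.36 ± 0.28, adjusted p = 0.0078).

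B-cell markers give the setting of these values. Of 16 B-cell markers 5 rose and 1 fell in spleen and 1 rose and 1 fell in thymus, and 3 interactions were called, Fcer2a, Cr2 and Pax5, all higher, where 19.4% of all genes rose in spleen and 5.49% had a higher interaction. Their summed signal was 2037, 3022 and 2482 in X-ray spleen and 1980, 1731 and 1856 in untreated spleen, and without Fcer2a it was 1676, 2390 and 2017, and 1911, 1673 and 1788. In thymus the sum was 120 to 123 after X-rays and 88.1 to 202 without. No marker was at 0 in all libraries of a group, and the part of cell numbers in the NF-kB and B-cell results was not tested. The defining B-cell genes Cd79a and Cd79b had changes of -0.09 (adjusted p = 0.88) and -0.19 (adjusted p = 0.52) in spleen. The call of Cr2, complement receptor 2, ended without any of 3 libraries (untreated spleen replicate 2, X-ray spleen replicate 3 or X-ray thymus replicate 2), with adjusted p between 0.051 and 0.057. That of Pax5, a B-cell transcription factor, ended by edgeR, by DESeq2 and with a pseudocount of 0.1, with adjusted p up to 0.095.

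Further spleen-only rises named by the rule were Wnt10b, a Wnt ligand, Grap, an adaptor of lymphocyte receptor signalling, Marcksl1, a regulator of the actin skeleton, and Niban3, which is expressed in B cells. Grap had 208, 272 and 213 signal units in X-ray spleen, against 52.2, 44.1 and 54.9 in untreated spleen, and 82.5, 80.6 and 77.8 in X-ray thymus, against 81.2, 68.8 and 70.3 in untreated thymus. Marcksl1 had 99.5, 163 and 114 units in X-ray spleen, against 26.3, 26.1 and 32.8 in untreated spleen, and 111, 110 and 111 in X-ray thymus, against 107, 108 and 108 in untreated thymus. X-ray and untreated libraries were apart in spleen for both genes, and the thymus changes were 0.13 ± 0.12 and 0.04 ± 0.15 on the log2 scale. Their interactions were 2.05 ± 0.16 (adjusted p = 7.6e-05) and 2.06 ± 0.21 (adjusted p = 0.00017). Wnt10b had an interaction of 2.16 ± 0.26 (adjusted p = 0.00042) and Niban3 one of 1.99 ± 0.19 (adjusted p = 0.00016). Lyst, the lysosomal trafficking regulator (2.45 ± 0.27, adjusted p = 0.00021), and Mdn1, a large ATPase of ribosome assembly (2.28 ± 0.24, adjusted p = 0.0002), were among the 8 highest interactions but could not be placed in a class.

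**Figure D3:**
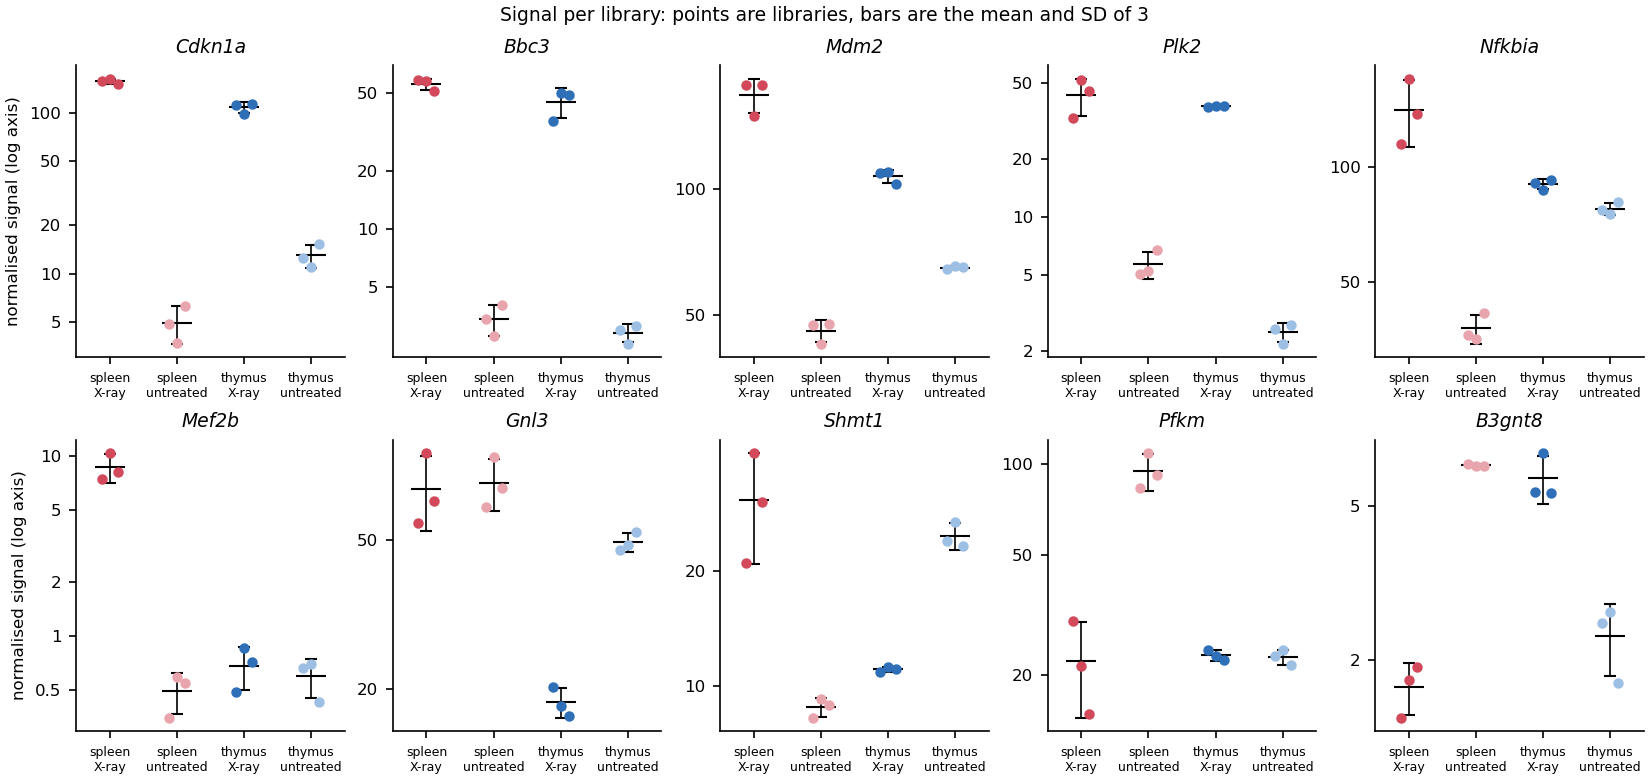
Signal in every library on a log axis for 10 genes of the response classes (points are libraries, bars the mean and SD of 3), with X-ray libraries left of untreated ones and spleen left of thymus. Bbc3 is up in both organs, Nfkbia and Mef2b are up in spleen with thymus nearly level, Gnl3 is down in thymus only, and Shmt1 moves up in spleen and down in thymus.

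The split of the spleen-only genes, 82 rising and 142 falling, was 104 and 119 after median-ratio scaling and 99 and 94 by DESeq2. The 8 lowest interactions named by the rule all belonged to genes that fell in spleen and were lower in untreated thymus than in untreated spleen. Pklr, the pyruvate kinase of liver and red cells, had 20.9, 18.8 and 7.06 signal units in X-ray spleen, against 115, 169 and 119 in untreated spleen, and 1.3, 1.15 and 1.72 in X-ray thymus, against 1.03, 0.813 and 1.11 in untreated thymus. Conditions were apart in spleen by far more than in thymus. The interaction of Pklr, -3.53 ± 0.44 (adjusted p = 0.00048), was the lowest among them. Pfkm, a phosphofructokinase of glycolysis, had 30.2, 21.4 and 14.8 units in X-ray spleen, against 83.1, 109 and 91.4 in untreated spleen, and 24.2, 23.0 and 22.4 in X-ray thymus, against 23.1, 24.1 and 21.5 in untreated thymus. Conditions were apart in spleen and overlapped in thymus, and Pfkm was well above the limit of detection in both organs. It fell by 2.12 in spleen, changed by 0.02 ± 0.19 in thymus, and had an interaction of -2.13 ± 0.27 (adjusted p = 0.00051). Slc39a8, a zinc and manganese importer, had 11, 6.79 and 7.19 units in X-ray spleen, against 40.2, 45.1 and 42.8 in untreated spleen, and 5.63, 5.89 and 7.89 in X-ray thymus, against 7.48, 7.30 and 6.93 in untreated thymus (interaction -2.15 ± 0.23, adjusted p = 0.00021).

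Acsl6, a fatty-acid activating enzyme (-3.07 ± 0.44, adjusted p = 0.0011), Gdf3, a growth factor of the TGF-beta family (-3.07 ± 0.41, adjusted p = 0.00072), Stard10, a lipid transfer protein (-2.74 ± 0.36, adjusted p = 0.00061), Atp7b, a copper pump (-2.70 ± 0.41, adjusted p = 0.0014), and Hpn, a membrane protease (-2.87 ± 0.45, adjusted p = 0.0016), followed. The spleen-only falls with the largest size also included Prss50, a serine protease (-2.66 ± 0.34, adjusted p = 0.00061), Atp1b2, a subunit of the sodium pump (-2.29 ± 0.28, adjusted p = 0.00047), and Pdia2, a disulfide isomerase (-1.94 ± 0.34, adjusted p = 0.0034). On recovered reads the interaction of Pdia2 was called neither by edgeR nor by DESeq2, with adjusted p up to 0.37. It was below 0.1 in every thymus library, and 49 of the 224 spleen-only genes had a mean below 1 in both thymus groups. Of 16 erythroid markers 0 rose and 0 fell in spleen and 0 rose and 1 fell in thymus by limma, and 0 interactions passed by limma, by edgeR, by DESeq2 or at an unadjusted p under 0.05. In spleen their summed signal ran from 196944 to 306781 in X-ray spleen and from 115647 to 174665 in untreated spleen. Their part in these falls was not tested. For Hpn and the p53-list member Gls2, X-ray thymus replicate 3 had 2.92 and 2.98 units, against 0.608 to 1.05 in the other X-ray thymus libraries, and it is the library with the high hepatocyte sum.

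Responses confined to the thymus by these intervals were few, and their falls included Myc and nucleolar genes. Myc, the growth-promoting transcription factor, had 34.9, 48.1 and 33.0 signal units in X-ray spleen, against 33.8, 51.4 and 36.7 in untreated spleen, and 16.4, 19.7 and 21.4 in X-ray thymus, against 40.8, 45.3 and 44.4 in untreated thymus. Conditions overlapped in spleen and were apart in thymus. It fell by 1.17 in thymus, changed by -0.07 ± 0.17 in spleen, and had an interaction of 1.10 ± 0.24 (adjusted p = 0.0097), which was not called in the fit with liver added, 18 libraries in all (adjusted p = 0.18). Gnl3, or nucleostemin, a nucleolar GTPase, had 55.5, 85.4 and 63.7 units in X-ray spleen, against 61.1, 83.2 and 68.8 in untreated spleen, and 20.3, 18 and 16.9 in X-ray thymus, against 46.9, 48.4 and 52.4 in untreated thymus. The pattern was the same, with an interaction of 1.33 ± 0.21 (adjusted p = 0.0018). Pprc1, a coactivator of mitochondrial biogenesis that is nonetheless counted in the ribosome biogenesis list below, fell by 1.13 in thymus (interaction 1.25 ± 0.19, adjusted p = 0.0014). Nolc1, a nucleolar chaperone, fell by 1.01 in thymus (interaction 1.08 ± 0.30, adjusted p = 0.035), a call that ended when single libraries were left out.

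The thymus-only rises were led by Tmem35a, a chaperone of nicotinic receptors. It had 10.8, 15.0 and 12.2 signal units in X-ray spleen, against 13.4, 9.13 and 9.62 in untreated spleen, and 20.6, 19.1 and 16.6 in X-ray thymus, against 4.51, 4.60 and 4.15 in untreated thymus. Spleen libraries overlapped and thymus libraries did not, and the interaction was -1.73 ± 0.22 (adjusted p = 0.00052). Syne3, a nuclear-envelope protein, rose by 1.27 ± 0.13 in thymus and changed by -0.12 ± 0.13 in spleen (interaction -1.38 ± 0.18, adjusted p = 0.00065). Bahcc1 (-1.06 ± 0.23, adjusted p = 0.0098), Slc25a42, a mitochondrial coenzyme A carrier (-0.95 ± 0.17, adjusted p = 0.0043), and Setd4 (-0.99 ± 0.25, adjusted p = 0.02) completed the 5 largest. The call of Setd4 ended without any of 3 libraries (untreated spleen replicate 1, X-ray spleen replicate 3 or untreated thymus replicate 3), with adjusted p between 0.050 and 0.053.

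Most ribosome biogenesis genes fell in thymus, and most did not pass the test in spleen. Of 22 tested, 7 rose and 1 fell in spleen, against 19.4% and 22.2% of all genes, and 17 had a positive change there. In thymus 0 rose and 16 fell, against 8.32% and 7.9%. The interaction was higher at 18 and lower at 0, against 5.49% and 7.22% of all genes. The median change was 0.25 in spleen and -0.69 in thymus on the log2 scale, and the median interaction was 1.01. Rrp12, an rRNA-processing factor, went in opposite directions, with 25.7, 43.7 and 31.0 signal units in X-ray spleen, against 12.3, 21.3 and 15.7 in untreated spleen, and 4.80, 4.54 and 5.15 in X-ray thymus, against 8.07, 8.53 and 9.41 in untreated thymus (interaction 1.78 ± 0.28, adjusted p = 0.0016). Utp20, a part of the small-subunit processome, was a spleen-only rise (1.25 ± 0.21, adjusted p = 0.0028). Spleen replicate 2 was the highest library of its group for Gnl3, Nolc1 and Rrp12 in both conditions. The 20 cytosolic ribosomal protein genes had 0 rising and 4 falling in spleen, against 19.4% and 22.2% of all genes. In thymus 1 was rising and 0 falling, against 8.32% and 7.9%. They had 0 called interactions by limma (4 at an unadjusted p under 0.05, 0 by edgeR and 1 by DESeq2), though 0 of the 20 had a positive interaction. Their median change was -0.24 in spleen and -0.03 in thymus, and their median interaction was -0.20. The number of biogenesis genes with a called interaction was 12 without untreated spleen replicate 1 or 3 or without untreated thymus replicate 3.

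Cholesterol synthesis genes differed in the same direction. Of 21 tested, 8 rose and 2 fell in spleen, 0 rose and 7 fell in thymus, and the interaction was higher at 10 and lower at 0, with a median of 0.61. Over all genes 19.4% rose in spleen, 7.9% fell in thymus and 5.49% had a higher interaction. Hmgcs1, which makes the HMG-CoA from which sterols are built, had 34.6, 51.5 and 41.9 signal units in X-ray spleen, against 19.8, 19.8 and 26.4 in untreated spleen, and 25.7, 26.3 and 28.0 in X-ray thymus, against 31.2, 38.7 and 37.6 in untreated thymus. It was higher after X-rays in all spleen libraries and lower in all thymus libraries, the thymus change itself not passing the test (adjusted p = 0.073), and the interaction was 1.35 ± 0.21 (adjusted p = 0.0015). Cyp51, a later enzyme of the route, had an interaction of 1.18 ± 0.23 (adjusted p = 0.0062). In the fit with the liver libraries added 5 members of the list were called.

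**Figure D4:**
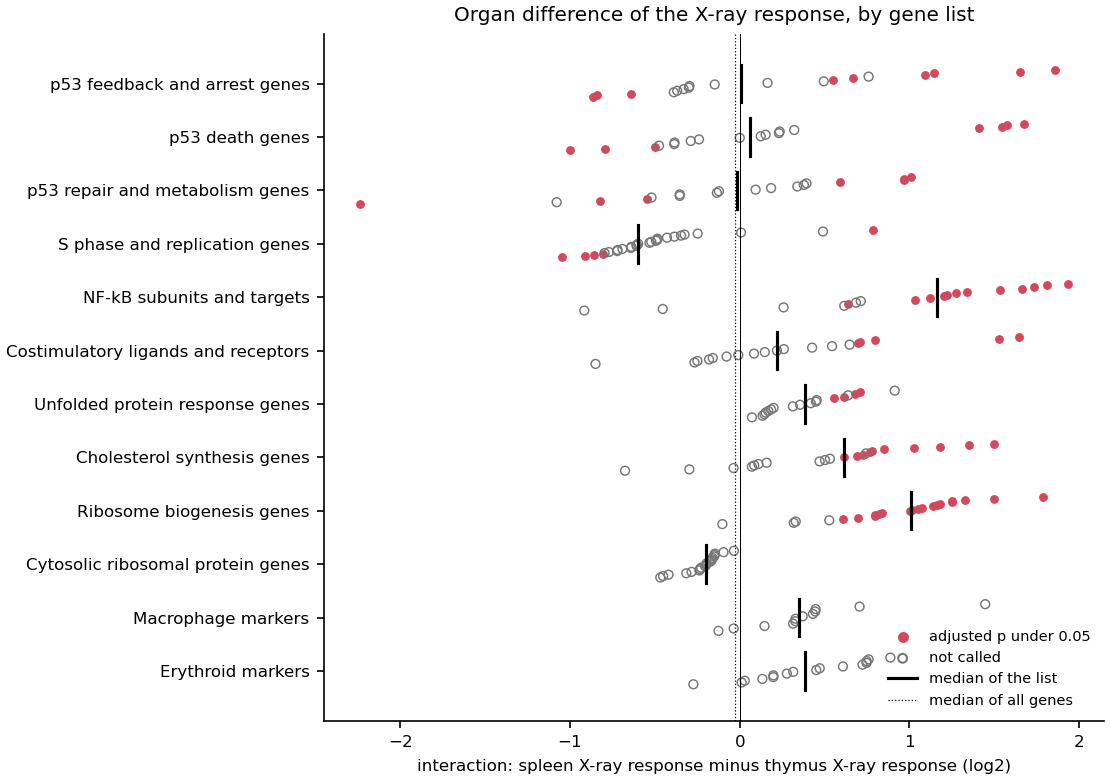
Interaction on the log2 scale (spleen X-ray response minus thymus X-ray response) of every tested member of 12 gene lists, filled where the adjusted p is under 0.05, with a bar at each list's median and a dotted line at the median of all genes (-0.03). Members of the NF-kB list (median 1.16, 12 of 18 called higher) and of the ribosome biogenesis list (median 1.01, 18 of 22) lie mostly to the right, while members of the 3 p53 lists lie on both sides of 0.

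In all, 18 genes with a 2-fold response in an organ moved in opposite directions. Shmt1, the cytosolic serine hydroxymethyltransferase that feeds one-carbon units into thymidylate synthesis (chromosome 11, 60788897 to 60811265), had 21.0, 40.8 and 30.3 signal units in X-ray spleen, against 8.25, 9.25 and 8.94 in untreated spleen, and 10.9, 11.2 and 11.1 in X-ray thymus, against 24, 26.9 and 23.2 in untreated thymus. Conditions were apart in both organs, and the order of the organs turned round. Its interaction was 2.82 ± 0.25 (adjusted p = 0.00011). Cdk5r1, the activator of the kinase Cdk5, rose by 2.23 ± 0.20 in spleen and fell by 0.76 in thymus (2.99 ± 0.28, adjusted p = 0.00012). Il9r, the interleukin-9 receptor, had 6.4, 6.91 and 6.86 units in X-ray spleen, against 3.38, 2.65 and 2.77 in untreated spleen, and 3.47, 3.48 and 3.17 in X-ray thymus, against 9.10, 7.25 and 5.76 in untreated thymus (2.08 ± 0.21, adjusted p = 0.00017). Slc35f2, a transporter (2.00 ± 0.18, adjusted p = 0.00011), Rasl11b, a small GTPase (1.91 ± 0.25, adjusted p = 0.00066), and St6galnac4, a sialyltransferase (1.71 ± 0.21, adjusted p = 0.00047), had the same direction.

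In the reverse direction, B3gnt8, a glycosyltransferase, had 1.41, 1.77 and 1.92 signal units in X-ray spleen, against 6.44, 6.37 and 6.38 in untreated spleen, and 5.44, 6.88 and 5.42 in X-ray thymus, against 2.49, 2.67 and 1.74 in untreated thymus. The organs exchanged their order with no overlap in either condition, and the interaction was -2.86 ± 0.22 (adjusted p = 7.6e-05). Mt1, a metal-binding metallothionein, had 29.5, 17.1 and 14.2 units in X-ray spleen, against 45.2, 48.6 and 39.6 in untreated spleen, and 13.9, 11.8 and 16 in X-ray thymus, against 6.66, 5.80 and 5.58 in untreated thymus (interaction -2.32 ± 0.30, adjusted p = 0.00056). Its neighbour in function Mt2 had an interaction of -2.79 ± 0.43 (adjusted p = 0.0014) without a called change in thymus (adjusted p = 0.17). Spon2, a secreted matrix protein (-2.22 ± 0.42, adjusted p = 0.0048), Arhgef40, a guanine nucleotide exchange factor (-1.78 ± 0.24, adjusted p = 0.00069), and Xkrx (-1.61 ± 0.16, adjusted p = 0.00017) shared this direction. Bid, whose change was below 2-fold in both organs, had 47.5, 75.4 and 57.0 units in X-ray spleen, against 35.5, 38.6 and 34.4 in untreated spleen, and 17.5, 20.8 and 17.1 in X-ray thymus, against 33.1, 36.7 and 32.8 in untreated thymus. It rose in spleen and fell in thymus with no overlap (interaction 1.57 ± 0.20, adjusted p = 0.00054).

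Many immediate early and chemokine genes rose in both organs, and few had a called interaction. Over 18 immediate early transcription factors 15 rose and 0 fell in spleen and 8 rose and 1 fell in thymus, and over 21 chemokines 11 rose and 1 fell in each organ, where 19.4% of all genes rose in spleen and 8.32% in thymus. The interaction was higher at 2 and lower at 1 of the first list and higher at 2 and lower at 3 of the chemokines, beside 5.49% and 7.22% of all genes, counts too small to set the lists apart. The single genes named here are among those of their lists with the smallest interaction p-values. Fos, an AP-1 transcription factor, had 3.01, 4.26 and 3.83 signal units in X-ray spleen, against 0.758, 1.18 and 1.99 in untreated spleen, and 17.9, 10.8 and 25 in X-ray thymus, against 1.38, 1.78 and 1.84 in untreated thymus. X-ray libraries were above untreated ones in both organs, by 1.26 ± 0.28 in spleen and 3.01 ± 0.28 in thymus (interaction -1.76 ± 0.40, adjusted p = 0.013). Ccl3, a chemokine of macrophages and T cells, had 0.894, 0.389 and 0.456 units in X-ray spleen, against 0.240, 0.280 and 0.190 in untreated spleen, and 6.84, 2.77 and 7.67 in X-ray thymus, against 0.279, 0.387 and 0.378 in untreated thymus (interaction -2.26 ± 0.40, adjusted p = 0.0034). Ccl7, a monocyte chemokine, had an interaction of -2.24 ± 0.38 (adjusted p = 0.0024), but on recovered reads it was -1.33 by edgeR (adjusted p = 0.28) and -1.25 by DESeq2 (adjusted p = 0.21). Both genes were near or below 1 in spleen, where the pseudocount shrinks a change. Ccl22, made by dendritic cells and B cells, moved the other way (1.21 ± 0.26, adjusted p = 0.009).

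Replication genes fell in both organs. Of 27 S-phase genes 0 rose and 26 fell in spleen, where 22.2% of all genes fell, and 0 rose and 13 fell in thymus, where 7.9% of all genes fell and all 27 had a negative change, and the median change was -1.04 in spleen and -0.60 in thymus. The interaction was lower at 4 and higher at 1, against 7.22% and 5.49% of all genes, with a median of -0.60. At an unadjusted p under 0.05 it passed at 18 of the 27 by limma, where 4172 of the 14779 genes tested did. Only 3 of the 27 had a positive interaction, so most of the list leaned to a larger fall in spleen. Ccne1, cyclin E1, had 66.9, 33.9 and 39.0 signal units in X-ray spleen, against 170, 169 and 165 in untreated spleen, and 11.3, 14.5 and 11.6 in X-ray thymus, against 21.9, 25 and 21.7 in untreated thymus. Conditions were apart in both organs, the interaction was -1.05 ± 0.27 (adjusted p = 0.024), and the call ended without any of 6 single libraries and in the fit with liver added, with adjusted p up to 0.065. Ung, which removes uracil from DNA, was the member called higher, falling by 0.79 in spleen and by 1.57 in thymus (interaction 0.78 ± 0.20, adjusted p = 0.024), with adjusted p up to 0.058 when 1 library was left out. Exo1, a repair exonuclease, fell by 1.77 in spleen and by 0.68 in thymus (-1.09 ± 0.18, adjusted p = 0.002). Of 30 G2 and mitosis genes 1 rose and 4 fell in spleen, against 19.4% and 22.2% of all genes. In thymus 0 rose and 3 fell, against 8.32% and 7.9%, and 0 of the 30 had a positive change. Their median change was -0.28 in spleen and -0.42 in thymus. The interaction was higher at 2 and lower at 0 of these 30 genes, against 5.49% and 7.22% of all genes. The member that rose in spleen was Ube2c, a ubiquitin-conjugating enzyme of mitosis, with 1014, 501 and 678 units in X-ray spleen, against 357, 295 and 381 in untreated spleen, and 88.9, 78.1 and 75.7 in X-ray thymus, against 104, 122 and 95.9 in untreated thymus (1.43 ± 0.28, adjusted p = 0.0062). X-ray spleen replicate 1 was its highest library, and in the fit with liver added the adjusted p was 0.098.

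Markers of other cell types are set beside all genes tested. Of all genes, 19.4% rose and 22.2% fell in spleen, and 8.32% rose and 7.9% fell in thymus. The interaction was higher at 5.49% and lower at 7.22% of them. Several of the marker lists had 0 called interactions. Of 12 macrophage markers 11 rose in spleen and 5 in thymus, with summed signals of 941 to 1475 in X-ray spleen, 562 to 740 in untreated spleen, 335 to 507 in X-ray thymus and 252 to 315 in untreated thymus, and 0 had a called interaction by limma (2 at an unadjusted p under 0.05, 0 by edgeR and 0 by DESeq2). There were also 0 limma calls among the 15 neutrophil markers (6 rose in spleen, 5 in thymus), 10 dendritic-cell markers (4 rose and 1 fell in spleen, 2 rose in thymus), 10 natural killer markers (1 rose in spleen, 1 rose and 1 fell in thymus), 12 hepatocyte markers (1 rose in each organ) and 11 stromal markers (1 rose in spleen). At an unadjusted p under 0.05 the interaction passed at 1 natural killer and 1 dendritic-cell marker and at 0 of the rest, edgeR called 0, and DESeq2 called 1 natural killer marker. Called or not, all 12 hepatocyte markers had a positive change in each organ, with a median of 2.18 in spleen and 1.54 in thymus on the log2 scale. Their sums differed widely between X-ray libraries of an organ, as given above. All 15 neutrophil markers were positive in each organ, and of the 11 stromal markers 11 were positive in spleen and 7 in thymus. Of 16 T-cell markers 3 rose and 1 fell in spleen and 0 rose and 1 fell in thymus, with interactions higher at 1, Lef1, and lower at 1, Cd2. The call of Lef1 ended in 15 alternatives, 10 of them without a single library (adjusted p up to 0.15), and that of Cd2 in the fit with liver added (adjusted p = 0.089). Of 11 immature thymocyte markers, 1 rose and 2 fell in spleen and 1 rose and 1 fell in thymus, with 1 interaction higher and 2 lower. Rag1, the recombinase of antigen receptor genes, had an interaction of -1.92 ± 0.32 (adjusted p = 0.0021) that rested on spleen levels of 1.79, 2.45 and 1.41 after X-rays, against 4.38, 7.26 and 9.66 without, and its adjusted p was 0.057 after quantile normalisation. Of 12 thymic epithelial markers 6 rose in thymus and 3 in spleen, with 1 interaction called lower by limma and 0 by edgeR or DESeq2, at Psmb11, whose spleen levels were at or near 0. Of 10 megakaryocyte markers 8 rose in spleen and 0 in thymus, with 1 interaction higher by limma, at Gp1bb, 6 at an unadjusted p under 0.05, and 0 by edgeR or DESeq2. In each thymus group 8 of the 10 had a mean under 1, so a thymus change could hardly be seen. The call of Gp1bb, a platelet receptor subunit, ended in 6 alternatives, with adjusted p up to 0.51. Of 6 plasma-cell markers 4 rose in spleen and 2 in thymus, with 1 higher.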

How the data were processed

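Whole-tissue RNA was sequenced after preparation with a stranded total RNA kit, per the labels' protocols. The authors deposited a gene table of normalised signal values, that is reads divided by the size of the library and a scaling factor. Per the submitters' processing notes edgeR and the build mm10 were used, with no version, and for aligner, counter and strand use nothing is stated there. In every library used, 100% of the signal values were whole multiples of the value of 1 read (tolerance 0.01 of a step), which was 0.0156 to 0.0235 units in spleen and 0.00991 to 0.0135 in thymus. The table has 18 columns that match no sample, and they were not used. Of 19001 gene numbers, 18380 (96.7%) matched a RefSeq symbol of GRCm38.p6.

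A gene was tested when 3 or more of the 12 libraries had a signal of 1 or more, which left 14779, and values were analysed on log2(signal + 0.5) with limma 3.58.1 (R 4.3.3, trended empirical Bayes), with 1 fit of the 4 groups, no covariate and Benjamini-Hochberg adjustment over all genes tested, threshold 0.05. Fold changes on this scale understate the change of low genes. Errors are SE. The procedure was tested on simulated data. Alternatives were edgeR 4.0.16 (quasi-likelihood) and DESeq2 1.42.0 on the recovered reads, pseudocounts of 0.1 and 2, no filter, a mean signal of at least 5, other scalings, Xist as a covariate, a fit with liver added (18 libraries), a replicate block, and leaving out each library. List counts under each alternative were added after seeing the data. The X-ray response of each organ was also fitted on its own libraries alone, which gives no interaction.

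Genes were named by rule: a panel of p53 genes, the 8 highest and 8 lowest interactions of at least 2-fold with a group mean of at least 5 and no overlap of libraries in the organ of the larger effect, the 5 largest in each direction per class, and up to 4 members per list with the smallest interaction p. Other genes were picked after their values were seen. A few members that the rule named are not reported here. Members and lists were chosen with earlier results of these data known. Lists were described by counts and medians, with no set test. Promoter windows came from RefSeq and covered 11072 of the tested genes.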

Additional observations from a re-analysis of the deposited data

Results flagged for a closer look

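The X-ray response differed between spleen and thymus, by the interaction test, at 1879 genes. Among the genes named by rule, those with a called interaction of at least 4-fold are given here as log2 values of spleen minus thymus. Negative values belonged to Pklr (-3.53), Acsl6 (-3.07), Gdf3 (-3.07), Hpn (-2.87), B3gnt8 (-2.86), Mt2 (-2.79), Stard10 (-2.74), Atp7b (-2.70), Prss50 (-2.66), Mt1 (-2.32), Atp1b2 (-2.29), Ccl3 (-2.26), Ccl7 (-2.24), Gls2 (-2.24), Spon2 (-2.22), Slc39a8 (-2.15) and Pfkm (-2.13). Positive values belonged to Fcer2a (3.40), Mef2b (3.08), Cdk5r1 (2.99), Shmt1 (2.82), Lyst (2.45), Mdn1 (2.28), Wnt10b (2.16), Il9r (2.08), Marcksl1 (2.06), Grap (2.05) and Slc35f2 (2.00).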

How the results depend on the processing

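Among 126 named genes under 25 alternatives, 2944 of 3124 values kept direction and side of the threshold, 173 lost the call, 5 gained one (all Bax) and 2 changed sign. Of the 116 called named genes, 80 kept call and direction in every alternative run and 86 in every one other than leaving out a library. The sign changed for Psmb11, at 0.99 by DESeq2 and 0.79 by edgeR, against -0.62, with spleen levels at or near 0.

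The number of interaction calls was 1782 by edgeR, 2508 by DESeq2 and 1494 in the fit of 18 libraries. DESeq2 put 40 genes in the opposite class and 175 in the shared but unequal class. A 2-fold margin for the intervals gave 413 spleen-only, 29 thymus-only, 161 shared alike, 48 shared but unequal and 10 opposite genes. A pseudocount of 2 gave 9 opposite genes, and the fit of 18 libraries called 5 cholesterol synthesis genes. The median interaction of the p53 targets was -0.06 with a pseudocount of 2 and -0.15 after quantile normalisation. The cause of these shifts was not tested. Classes were not run by edgeR, which gives no intervals here.

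Leaving out 1 library at a time, interaction calls ranged from 1228 to 3450, spleen calls from 4695 to 7250 and thymus calls from 1025 to 3326. Thymus calls were 1025 without X-ray thymus replicate 3, 1214 without untreated thymus replicate 2 and 1362 without untreated thymus replicate 3. The classes ranged from 160 to 393 for spleen only, 10 to 19 for thymus only, 31 to 42 for shared alike, 66 to 212 for shared but unequal and 7 to 36 for opposite. The upper values of spleen only, shared but unequal and opposite came without X-ray spleen replicate 1, and the lower ones of shared but unequal and opposite without X-ray thymus replicate 3 (66 and 11), untreated thymus replicate 2 (69 and 7) or untreated thymus replicate 3 (66 and 10). Called interactions ranged from 9 to 16 for the NF-kB list, 12 to 19 for ribosome biogenesis, 7 to 12 for cholesterol synthesis and 18 to 29 for the p53 targets.

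Same-numbered libraries of different groups had deviations that correlated between -0.19 and 0.47 over all pairs of groups. All 3 same-number pairs were over 0.1 between untreated spleen and untreated thymus (0.15 to 0.33) and between X-ray and untreated spleen (0.15 to 0.20), but not between X-ray spleen and X-ray thymus (-0.03 to 0.47), X-ray and untreated thymus (0.0048 to 0.46), X-ray thymus and untreated spleen (0.079 to 0.31) or X-ray spleen and untreated thymus (-0.19 to 0.19). The labels name no shared animal and not every pair was over 0.1, so the numbers were not taken to pair the samples, though some link by number is seen. With a replicate block the interaction was called at 2437 genes, and with the block within each treatment at 2144.

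These data hold 3 libraries a group at 1 dose and 1 time. A response that was not called in an organ is not shown to be absent, and 479 of 889 responses could not be placed. Genes with a mean signal under 1 in both thymus groups made up 118 of the called interactions, and those under 1 in both spleen groups 49. Near that level a log2 change is held down by the pseudocount.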

Other observations

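Counts of other gene lists are given beside those over all genes, of which 19.4% rose and 22.2% fell in spleen, 8.32% rose and 7.9% fell in thymus, and 5.49% had a higher and 7.22% a lower interaction. Of 16 clock genes, 7 rose and 1 fell in spleen, 2 rose and 0 fell in thymus, and 5 interactions were called, all higher. Bhlhe41, a transcriptional repressor of the clock, had 8.64, 13.6 and 10.4 signal units in X-ray spleen, against 1.96, 2.79 and 2.47 in untreated spleen, and 5.56, 5.98 and 6.43 in X-ray thymus, against 4.88, 5.50 and 4.19 in untreated thymus (interaction 1.68 ± 0.23, adjusted p = 0.00089). Spleen libraries were apart by condition, with untreated spleen below and X-ray spleen above all thymus libraries. The unfolded protein response list had 10 of 18 members rising and 0 falling in spleen and 0 rising and 0 falling in thymus, with 4 interactions called, all higher, and 9 at an unadjusted p under 0.05. Herpud1, a factor of protein degradation at the endoplasmic reticulum, changed by 0.87 ± 0.13 in spleen and 0.16 ± 0.13 in thymus (interaction 0.71 ± 0.18, adjusted p = 0.025), and its call ended when single libraries were left out.

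Of 13 glucocorticoid-responsive genes, 7 rose and 2 fell in spleen and 6 rose and 0 fell in thymus, with 2 interactions higher and 3 lower. Tsc22d3, which encodes the glucocorticoid-induced leucine zipper, had 46.2, 65.8 and 57.6 units in X-ray spleen, against 55.5, 62.1 and 53.1 in untreated spleen, and 112, 141 and 122 in X-ray thymus, against 60.4, 76.1 and 58.2 in untreated thymus. Spleen libraries overlapped and thymus libraries did not (interaction -0.96 ± 0.20, adjusted p = 0.0078). Of 7 linker histone H1 genes, 0 rose and 1 fell in spleen and 2 rose and 0 fell in thymus, with 2 interactions lower, H1f1 (-1.31 ± 0.29, adjusted p = 0.01) and H1f2 (-1.06 ± 0.21, adjusted p = 0.0067, and 0.15 in the fit with liver added). Of 22 interferon-stimulated genes, 9 rose and 1 fell in spleen, 3 rose and 0 fell in thymus, and 1 interaction was called, lower, at Ifit2 (-0.69 ± 0.13, adjusted p = 0.0048), so that no share of called interactions above that of all genes was seen in this list. Of 4 Mef2 genes, 1 rose in spleen and 0 in thymus, and the interaction was called at that one, Mef2b.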
